A study of Homo sapiens with 19 samples.

Results

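The genes described here encode the spectrin-based membrane skeleton: the protein 4.1 family (EPB41, EPB41L1, EPB41L2, EPB41L3 and EPB41L5), the spectrins SPTAN1 and SPTBN1, ankyrin-G (ANK3), and the adducins ADD1 and ADD3. They are 10 of the 22760 genes with reads on annotated splice junctions in the series. They were taken as a named list, and their annotated introns were read in all 19 libraries. All 10 were among the 13393 genes tested in the knockdown libraries. Of their 79 candidate cassette exons (exons that annotated transcripts either include or skip between the same neighbours), 25 had enough reads of both forms to be tested, among 6879 tested in all.

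The measurement is the number of sequencing reads that cross each splice junction, in ribosomal RNA-depleted RNA from established human cell lines. There was 1 library each of total, nuclear and cytoplasmic RNA from A375, a melanoma line, 1 from wild-type HEK293, an embryonic kidney line, and 1 from wild-type HUES66, a line of embryonic stem cells. The other 14 libraries came from HUES66 cells in 1 ug/ml doxycycline for 24, 48 or 96 hr. They comprise 3 controls of wild-type genotype (24 hr replicate 2, 48 hr and 96 hr), 3 total knockdowns of RBFOX2 (total KD; 24 hr replicate 1, 48 hr and 96 hr), 4 N-short knockdowns and 4 N-long knockdowns (both with 24 hr replicates 1 and 2, 48 hr and 96 hr). RBFOX2 is an RNA-binding protein that regulates splicing. Cas13d, which cuts guide-matched RNA, is in the title of the series. The labels call N-short and N-long isoform knockdowns without saying which transcripts each removes. All 14 libraries, controls included, had doxycycline. By time and, at 24 hr, replicate number they were placed in 4 sets: 24 hr replicate 1, 24 hr replicate 2, 48 hr and 96 hr. Library names give each 24 hr replicate its own prefix, while the 48 hr and 96 hr libraries share 1 prefix. The labels do not say whether libraries came from separate cultures, so p-values measure the spread between these libraries, which may be technical. The comparisons of each knockdown with control use the same controls and are not independent of one another.

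In the membrane skeleton, rods of alpha and beta spectrin are tied at their ends to short actin filaments, and this network lies under the plasma membrane. Protein 4.1 strengthens the spectrin-actin junction and links it to membrane proteins through its FERM domain. Ankyrin binds beta spectrin and anchors channels and adhesion proteins, and adducin caps the fast-growing ends of the actin filaments and recruits spectrin to them. The network was worked out in red blood cells, where a cassette exon of EPB41 that encodes part of the spectrin-actin binding domain is switched on as the cells mature, and RBFOX2 is known to promote its inclusion. Defining genes of red blood cells were near 0 in all libraries (HBB had no read in any), so the values below describe the skeleton of non-erythroid cells.

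Several sequences carry the results, and they are shown with the exon in capitals and 15 transcript bases on each side in lower case, as read 5′ to 3′ from GENCODE 29 transcripts on GRCh38. The first 3 are neighbouring EPB41 exons on chromosome 1, plus strand: a 57-nt exon at 29058589 to 29058645, a 42-nt exon at 29058811 to 29058852 and the 63-nt exon at 29060422 to 29060484 that responded to the knockdowns. The next pair are SPTAN1 exons on chromosome 9, plus strand, at 128592983 to 128593042 and 128609651 to 128609665. The last is an ADD3 exon on chromosome 10, plus strand, at 110132305 to 110132400. All are coding exons whose lengths are multiples of 3.
EPB41 57-nt exon: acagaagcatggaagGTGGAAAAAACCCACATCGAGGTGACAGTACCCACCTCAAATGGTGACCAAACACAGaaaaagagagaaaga
EPB41 42-nt exon: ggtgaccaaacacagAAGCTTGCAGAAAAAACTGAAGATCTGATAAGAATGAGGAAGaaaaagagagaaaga
EPB41 63-nt exon: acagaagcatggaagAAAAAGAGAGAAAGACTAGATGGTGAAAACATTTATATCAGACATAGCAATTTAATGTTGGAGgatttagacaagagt
SPTAN1 60-nt exon: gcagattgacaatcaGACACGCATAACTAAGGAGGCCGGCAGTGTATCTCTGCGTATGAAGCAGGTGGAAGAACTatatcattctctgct
SPTAN1 15-nt exon: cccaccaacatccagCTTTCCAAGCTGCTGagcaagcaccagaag
ADD3 96-nt exon: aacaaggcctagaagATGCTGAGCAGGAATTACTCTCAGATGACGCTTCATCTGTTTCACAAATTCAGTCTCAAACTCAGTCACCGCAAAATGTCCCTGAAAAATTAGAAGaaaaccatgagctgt

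Frame-keeping exons made up 21 of the 25 tested exons of these genes (84%), against 46.5% of the 6879 tested exons. Wholly coding exons were also 21 of 25 (84%), against 60.1% of all. EPB41 had 6 tested exons, EPB41L1 had 5, ADD1 had 4, EPB41L3 and ANK3 had 3 each, SPTAN1 had 2, and EPB41L2 and ADD3 had 1 each. EPB41L5 and SPTBN1 had none. Some tested exons share junctions, so they are not independent of each other. They are the 37-nt and 34-nt ADD1 exons, the 84-nt and 81-nt EPB41L1 exons, the 54-nt and 63-nt ANK3 exons, and the neighbouring EPB41 exons.

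The junction reads per library ranged from 6499183 to 27937149, and from 9622841 to 14625040 in the treated libraries. The cells carried the markers of their labels only in part. Embryonic stem cell genes POU5F1, NANOG, LIN28A and DNMT3B were high in HUES66, with a summed level of 2303 to 3767 CPM (reads scaled to the total junction reads of the library) in the treated libraries, and SOX2, which has no intron, cannot be seen in junction reads. In A375 total RNA, SOX10 was at 100.3 CPM and MITF at 39.0 CPM, while the pigment genes MLANA and TYR had no read and PMEL was at 0.476 CPM. RBFOX2 itself was at 126, 129 and 134 normalised CPM in the 3 controls (normalised CPM being CPM after scaling by TMM factors), and at 50.7, 81.1 and 81.8 in total KD. N-short KD libraries had 114 to 124 and N-long KD libraries 77.9 to 90.9. The log2 change was -0.82 (SE 0.079, adjusted p = 8.5e-09) for total KD against control and -0.57 (SE 0.071, adjusted p = 2.7e-05) for N-long KD. For N-short KD the change of -0.06 (SE 0.069, adjusted p = 0.999) did not pass. The N-long call was lost with DESeq2 (adjusted p = 0.0682) and without the replicate block (adjusted p = 0.459).

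The question of the knockdowns is which membrane skeleton transcripts change form or level when RBFOX2 is lowered. Total KD lowered the inclusion of 2 of the 25 tested exons, one in EPB41 and one in EPB41L1, and raised none. Over all tested exons, 1.28% passed in this comparison (0.989% lower). The same 2 exons fell in N-long KD, where 0.465% of all tested exons passed (0.422% lower and 0.0436% higher). They were also lower in N-long KD than in N-short KD, where 0.363% passed (0.32% lower and 0.0436% higher). None of the 25 passed in N-short KD, where 0.0145% of all passed. An unadjusted p under 0.05 was seen there for 1 of the 25, against 290 of all 6879 exons.

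The largest of these changes was in the 63-nt exon of EPB41. Inclusion, the percentage of inclusion reads among inclusion and skipping reads, in the 3 controls was 72.2% (24 hr replicate 2), 65.8% (48 hr) and 83.3% (96 hr). With total KD it was 35.1% (24 hr replicate 1), 13% (48 hr) and 28.9% (96 hr). The lowest control lay well above the highest total KD library. Within the 48 hr and 96 hr sets, where both groups are present, inclusion was at a mean of 74.6% in control and 21% in total KD. It fell by 53.6 ± 1.16 points (SD, n = 2 sets). The log2 change in the odds of inclusion was -3.33 (SE 0.31, adjusted p = 3.7e-10, edgeR quasi-likelihood test with Benjamini-Hochberg adjustment over all exons).

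N-long KD took the same exon to an intermediate level, with 59.1% and 53.0% in the 24 hr replicates, 35.9% at 48 hr and 39.1% at 96 hr. These 4 libraries lay below every control and above every total KD library. Inclusion fell by 31.1 ± 12.5 points (SD, n = 3 sets; log2 odds -1.92, SE 0.28, adjusted p = 3.5e-05). Under limma on log2 ratios of the 2 read counts, which called 0 exons in this comparison, the adjusted p was 0.238. The N-short KD libraries had 80.3% and 71.4% at 24 hr, 62.7% at 48 hr and 69.5% at 96 hr. It was lower than its control in 3 of 3 sets, with a difference of -5.91 ± 6.95 points that did not pass (log2 odds -0.41, SE 0.29, adjusted p = 1.0). Between N-short and N-long KD the difference was -24.2 ± 5.41 points, lower with N-long KD in 4 of 4 sets (log2 odds -1.51, SE 0.25, adjusted p = 3.1e-04), a difference that limma also left above the threshold (adjusted p = 0.450).

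**Figure D1:**
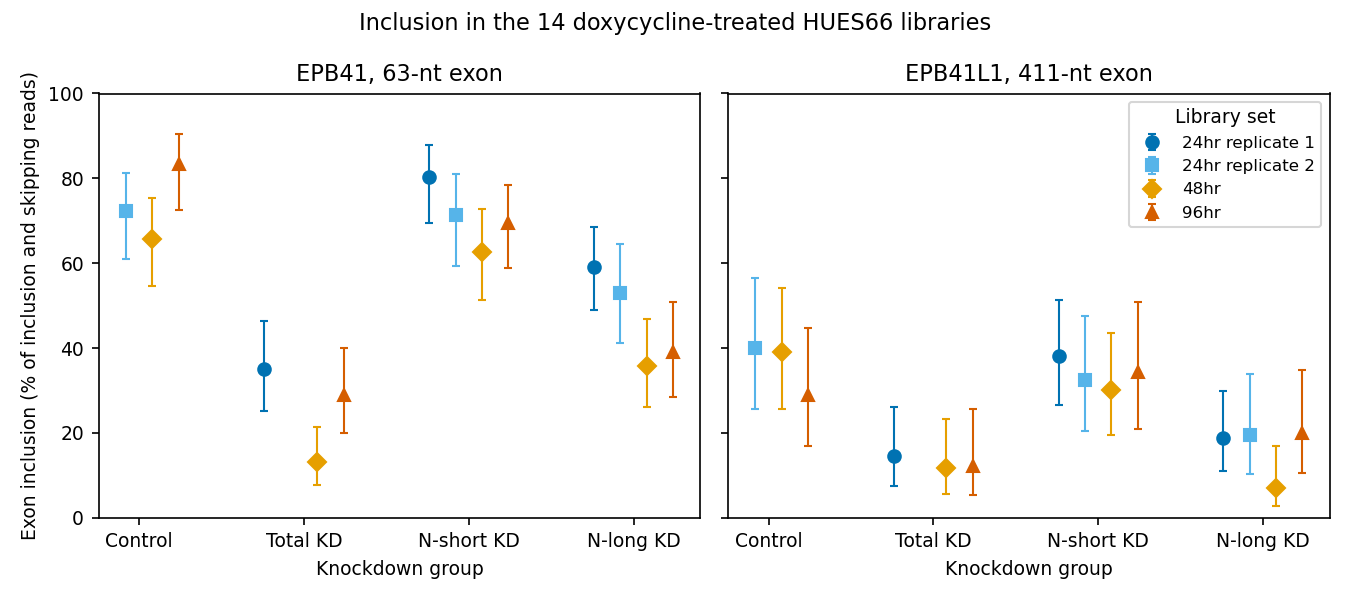
Inclusion (% of inclusion and skipping reads) of the EPB41 63-nt exon (left) and the EPB41L1 411-nt exon (right) in each of the 14 treated HUES66 libraries, grouped by knockdown, with marker shape and colour for the library set and bars for 95% Wilson intervals of the reads. The EPB41 exon sat between 65.8% and 83.3% in controls and between 13% and 35.1% in total KD, with N-long KD in between.

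The reads behind these values moved in both directions. Reads on the junction that skips the exon (intron 29053313 to 29064981 of chromosome 1) rose by 1.69 on the log2 scale of reads in total KD (SE 0.23, adjusted p = 1.8e-08), and those on the junction that leaves the exon downstream (29060485 to 29064981) fell by 1.51 (SE 0.20, adjusted p = 1.2e-08). The direct upstream junction (29053313 to 29060421) fell by 1.58 (SE 0.29, adjusted p = 2.2e-04). A further path enters the 63-nt exon from the 42-nt exon shown above. That junction (29058853 to 29060421) fell by 1.20 (SE 0.30, adjusted p = 0.0255), with 11 reads in each of the 2 total KD libraries of the shared sets against 28 in each control. With inclusion taken from the flanking junction with more reads, a choice made after the values were seen, the log2 odds change was -3.30 in total KD and -1.97 in N-long KD. In N-long KD the skipping junction rose by 1.11 (SE 0.22, adjusted p = 0.0062) and the downstream junction fell by 0.76 (SE 0.16, adjusted p = 0.0159). Junctions of the 10 genes passed 5 times among 286 tested in total KD (0.458% of all junctions passed, 0.285% higher and 0.173% lower) and 2 times in N-long KD (0.0444% of all). Of the N-long calls 1 was higher and 1 lower (0.0145% and 0.0299% of all). None passed in N-short KD (0.0111% of all, 0.00512% higher and 0.00598% lower). An unadjusted p under 0.05 was seen there for 9 of 286, against 5367 of all 117135 junctions. Between N-long and N-short KD none passed either (0.0316% of all, 0.0128% higher and 0.0188% lower). There 15 of 286 had an unadjusted p under 0.05, against 5636 of all 117135 junctions.

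The 57-nt and 42-nt neighbours are given here because they share junctions with the 63-nt exon. Relative to skipping to the 63-nt exon, the 57-nt exon was included at 27.5% to 43.8% in controls and 35.7% to 58.3% in total KD, so the groups overlapped. The 42-nt exon, whose inclusion is measured among transcripts that hold the 57-nt exon, was at 77.4% to 80.6% in controls and 68.8% to 84.6% in total KD. Neither passed in any knockdown comparison. Their totals were small, at a mean of 45.1 and 29.9 reads per library.

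The 411-nt coding exon of EPB41L1 (chromosome 20, 36209488 to 36209898), the gene for the neuronal protein 4.1N, was the other that passed. It was included at 40% (24 hr replicate 2), 39% (48 hr) and 28.9% (96 hr) in controls. Total KD had 14.5% (24 hr replicate 1), 11.8% (48 hr) and 12.2% (96 hr). The groups did not overlap. Inclusion fell by 22 ± 7.43 points (SD, n = 2 sets; log2 odds -1.98, SE 0.45, adjusted p = 0.0103). In N-long KD it was at 18.8%, 19.5%, 7.14% and 20%, below all controls. It fell by 20.4 ± 11.5 points (n = 3 sets; log2 odds -1.67, SE 0.40, adjusted p = 0.0363). The N-short KD libraries had 38.2%, 32.6%, 30.2% and 34.3%, inside the range of controls (log2 odds -0.24, SE 0.37, adjusted p = 1.0). The difference between N-long and N-short KD was -17.5 ± 4.64 points, lower with N-long KD in 4 of 4 sets (log2 odds -1.43, SE 0.34, adjusted p = 0.0425).

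The EPB41L1 calls rest on a mean of 46.3 reads per library and lie near the threshold. Omitting the 48 hr control gave an adjusted p of 0.236 in total KD, and omitting total KD of 48 hr or 96 hr gave 0.0663 or 0.0509. The N-long call was lost in 9 of 19 alternatives, 6 of them with 1 library left out. Omitting the 24 hr replicate 2 or the 48 hr control gave an adjusted p of 0.182 or 0.559, and omitting the 24 hr replicate 1, 24 hr replicate 2 or 48 hr library of N-long KD gave 0.0738, 0.0507 or 0.435. Omitting N-short KD of 24 hr replicate 1 gave 0.051. The call between N-long and N-short KD was lost in 12 of 19, among them without any 1 of the 8 N-long and N-short libraries (adjusted p from 0.0559 to 0.529) and without the 24 hr replicate 2 control (0.0508). The direction was kept in each. On the junctions themselves, the downstream one (36209899 to 36212271) fell by 2.04 on the log2 scale in total KD (SE 0.52, adjusted p = 0.0335).

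The other 23 tested exons differed by -9.75 to 23.5 points in total KD without passing, with 0.603 as the smallest adjusted p. The upper end of that range is the 117-nt exon of EPB41L3 (chromosome 18, 5394677 to 5394793), a partly coding exon in the gene for protein 4.1B. It was at 18.2% to 45.8% in controls and 35.0% to 66.7% in total KD, on a mean of 21.9 reads per library (log2 odds 1.21, SE 0.62, adjusted p = 0.668). The 23 exons that did not pass in N-long KD spanned -12.1 to 10 points, and the 25 in N-short KD spanned -11.7 to 5.74 points.

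The authors' deposited tables, which compare control and knockdown at each time, hold the same EPB41 and EPB41L1 exons. In the authors' deposited table for total KD, the EPB41 63-nt exon had a difference (control minus knockdown, on a scale from -1 to 1) of 0.411 at 24 hr, 0.508 at 48 hr and 0.574 at 96 hr, all past an adjusted p of 0.05 and a difference of 0.1. For N-long KD the authors' deposited tables gave 0.211, 0.323 and 0.45, of which the last passed (adjusted p = 9.6e-04), and for N-short KD none of the events on this exon passed. A second event is listed on the same exon in the authors' deposited tables, with neighbours not given in the columns used here, and it did not pass in any. The authors' deposited tables put EPB41L1 past both thresholds in total KD at 24 hr (0.258) and in N-long KD at 48 hr (0.319). At 96 hr of total KD the authors' deposited table also listed the 57-nt EPB41 exon, at 0.434 (control minus knockdown, thus lower in the knockdown). Its neighbours in that event are not given in the columns used here. Against skipping to the 63-nt exon the junction counts ran the other way: at 96 hr the 57-nt exon was included at 35.7% in total KD (28 reads) and 27.5% in the control (51 reads), and the difference over sets, 14.4 ± 8.74 points and higher in 2 of 2, did not pass.

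By a rule of likeness, 3 exons of other genes followed the EPB41 63-nt exon most closely over the 14 treated libraries, among 5094 exons with at least 20 reads in every one. They were a 93-nt exon of ECT2 (Pearson r = 0.93), a 57-nt exon of MSI1 (r = 0.91) and a 49-nt exon of ARHGAP17 (r = 0.89). These are descriptions over libraries that share knockdowns and sets.

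At the level of gene reads, 1 of the 10 genes passed with knockdown. SPTBN1, the beta spectrin of most non-erythroid cells, was at 1009 (24 hr replicate 2), 896 (48 hr) and 952 (96 hr) normalised CPM in controls. Total KD had 824 (24 hr replicate 1), 882 (48 hr) and 847 (96 hr). Every total KD library lay below every control, but the 24 hr libraries of the 2 groups are of different sets. Within sets SPTBN1 differed little at 48 hr and more at 96 hr. Its log2 change was -0.14 (SE 0.036, adjusted p = 0.0265), lower in 2 of 2 sets, in a comparison where 2.26% of all genes passed (1.24% lower). That call was lost in 8 of 18 alternatives with the direction kept. The adjusted p was 0.209 without the replicate block, and 0.110 or 0.189 on omitting the 24 hr or 96 hr control. Omitting total KD of 24 hr or 96 hr gave 0.106 each, omitting either 24 hr N-long KD replicate gave 0.0539 or 0.0502, and omitting N-short KD of 24 hr replicate 2 gave 0.0526. The other 9 genes had log2 differences of -0.14 (EPB41L3) to -0.02 (EPB41). An unadjusted p under 0.05 was seen for 3 of the 10, against 1744 of all 13393 genes. None of the 10 passed in N-short KD (0.00747% of all genes did), N-long KD (0.0224%) or between N-long and N-short KD (0.0149%). None of the 10 had an unadjusted p under 0.05 in those 3 comparisons, where 542, 594 and 679 of all 13393 genes did. DESeq2 also called 0 of the 10 in them. The median log2 change over the 10 genes in total KD was -0.06, against -0.00083 over all genes tested.

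The 48 hr and 96 hr sets carry the same prefix in their library names and hold the same 4 groups, 1 library of each. For this reason 96 hr was compared with 48 hr in the fit with knockdown as a term. Time and anything else that differs between the 2 sets cannot be told apart. ANK3 gave the largest change, from 201 to 211 normalised CPM at 48 hr to 126 to 137 at 96 hr, with no overlap (log2 -0.62, SE 0.037, adjusted p = 4.2e-16). At 24 hr ANK3 was at 124 to 132 in replicate 1 and 172 to 187 in replicate 2, so the 2 sets of that time differed as well. ADD3 went from 144 to 145 at 48 hr to 109 to 122 at 96 hr (log2 -0.32, SE 0.037, adjusted p = 4.7e-09). Its 24 hr libraries were at 128 to 131 in replicate 1 and 153 to 155 in replicate 2. EPB41L3 went from 41.7 to 48.6 at 48 hr to 27.9 to 38.7 at 96 hr (log2 -0.40, SE 0.071, adjusted p = 1.3e-05). It was at 32.4 to 37.0 in 24 hr replicate 1 and 43.9 to 48.9 in 24 hr replicate 2.

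EPB41L5, a FERM protein of epithelial adhesion and cell shape, fell by 0.20 on the log2 scale (SE 0.043, adjusted p = 1.6e-04). EPB41L1 fell by 0.17 (SE 0.054, adjusted p = 0.0074) and EPB41L2, protein 4.1G, by 0.12 (SE 0.031, adjusted p = 0.0011). Each was lower in 4 of 4 groups. Their 24 hr sets differed as well: EPB41L5 was at 83.3 to 86.0 normalised CPM in replicate 1 and 98.6 to 100.2 in replicate 2. EPB41L2 was at 212 to 217 and 247 to 256 in these sets, and EPB41L1 at 47.2 to 52.8 and 54.7 to 57.3. Without the 96 hr N-long KD library the adjusted p of EPB41L1 was 0.0781, and without the replicate block that of EPB41L2 was 0.104. Thus 6 of the 10 genes fell and none rose, where 59.6% of all genes passed (30% lower and 29.5% higher). EPB41 was 0.09 higher (SE 0.040, adjusted p = 0.0562), and SPTAN1 (-0.05, SE 0.026), SPTBN1 (0.03, SE 0.029) and ADD1 (0.04, SE 0.036) did not pass. EPB41 passed in 9 of 18 alternatives. In bulk samples, fewer cells of a type and less RNA per cell cannot be told apart. The summed stem cell markers were at 2586 to 2696 CPM at 48 hr and 3099 to 3767 CPM at 96 hr. The neural list was at 1.80 to 3.20 and 1.21 to 1.66 CPM, with NEUROD1 at 0 throughout. The part of either in these changes was not tested.

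**Figure D2:**
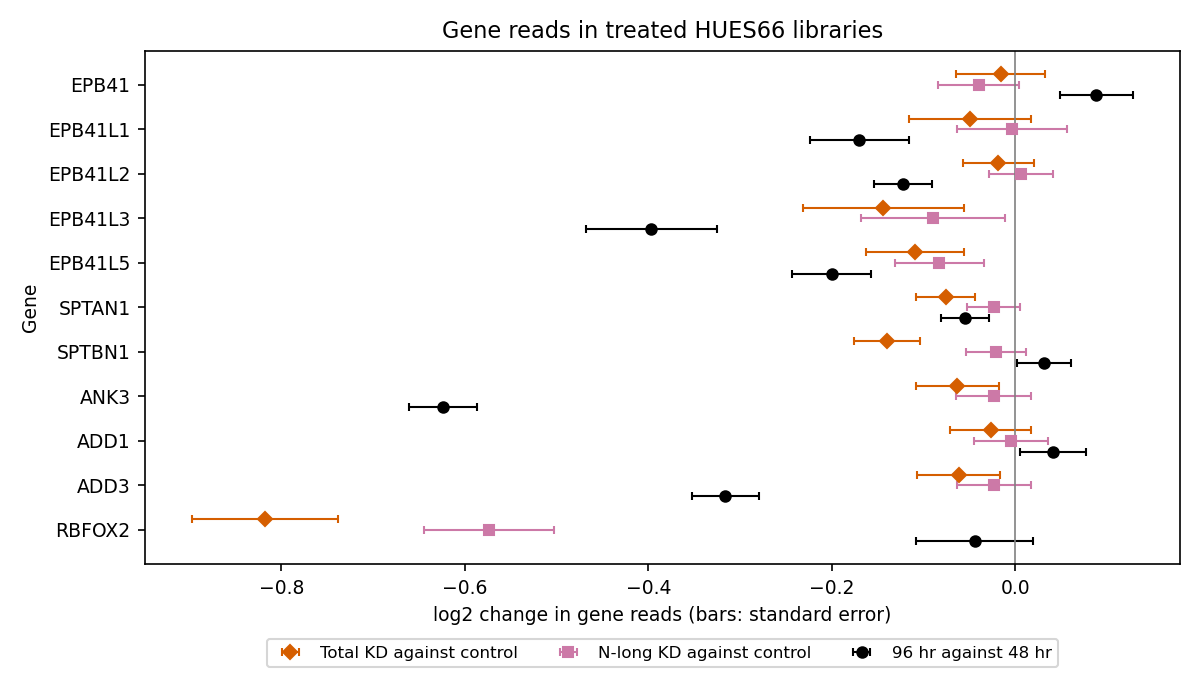
Log2 change in gene reads of the 10 membrane skeleton genes and of RBFOX2 in treated HUES66 libraries, for total KD against control, N-long KD against control and 96 hr against 48 hr, with bars for the standard error. ANK3, EPB41L3 and ADD3 lie furthest below 0 between 48 hr and 96 hr, while RBFOX2 lies furthest below 0 in the knockdowns.

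For ANK3 the decrease ran along the gene: 41 of its 47 tested junctions were lower at 96 hr and none was higher, with a median log2 change of -0.71. Away from the named exons, the junctions with the smallest adjusted p were ANK3 60082738 to 60083491 (44 to 65 reads at 96 hr, 98 to 108 at 48 hr), ANK3 60042760 to 60055657 (38 to 56 and 77 to 95 reads) and ADD3 110008300 to 110100624 (41 to 71 and 93 to 110 reads). These 3 were picked by this same comparison, so their separate ranges at the 2 times add no support. ADD3 had 11 of 14 lower and EPB41L3 had 7 of 18. In SPTBN1, 1 of 36 was lower and 1 higher. Over all 10 genes 78 junctions were lower and 9 higher among 286, where 32.6% of all junctions passed (16.6% higher and 16% lower). ANK3 has several first exons. Its distal start (intron 60615225 to 60733262, chromosome 10) fell by 0.90 (SE 0.20, adjusted p = 1.9e-04), and a start nearer the body of the gene (60139088 to 60140351) fell by 0.38 (SE 0.13, adjusted p = 0.0188). The distal start held 29.7% to 37.7% of the reads of the 2 starts at 48 hr and 21.3% to 28.9% at 96 hr. The difference between the changes of the 2 starts was not tested.

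Inclusion changed with time in 7 of the 25 exons, 4 higher and 3 lower, where 16.4% of all tested exons passed (8.43% higher and 7.92% lower). The largest of these 7 changes was in the 15-nt exon of SPTAN1, the gene for alpha-II spectrin. It was included at 77.5% in control, 72.2% in total KD, 79.2% in N-short and 76.5% in N-long KD at 48 hr. At 96 hr the same groups had 41%, 30.6%, 38.7% and 31.1%. Every 48 hr library lay above every 96 hr library, and inclusion fell by 41 ± 3.67 points (SD, n = 4 groups; log2 odds -2.56, SE 0.14, adjusted p = 8.7e-17). The 24 hr replicate 1 libraries were at 40.4% to 41.7% and the 24 hr replicate 2 libraries at 50.6% to 53.0%, both below 48 hr. The widest span within a set was the 30.6% to 41% at 96 hr.

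The 60-nt exon of SPTAN1, which lies next to the SH3 domain of the protein, moved the other way. It was at 17.4% to 21.3% at 48 hr and 23.4% to 33.5% at 96 hr, with no overlap, a rise of 10.9 ± 6.15 points (log2 odds 0.85, SE 0.18, adjusted p = 5.1e-04). The 24 hr sets again differed, at 27.1% to 33.3% in replicate 1 and 18.1% to 25% in replicate 2. The 450-nt coding exon of EPB41 (chromosome 1, 29096155 to 29096604) was at 60.6% to 75% at 48 hr and 40.3% to 50.7% at 96 hr. It fell by 21.7 ± 7.83 points (log2 odds -1.26, SE 0.25, adjusted p = 2.7e-04). The 99-nt exon of EPB41L2 (chromosome 6, 130865536 to 130865634, minus strand) went from 91.7% to 94.1% at 48 hr to 95% to 98.6% at 96 hr, a rise of 4.17 ± 1.60 points (log2 odds 1.30, SE 0.33, adjusted p = 0.0041). For the SPTAN1 60-nt and EPB41L2 exons limma gave an adjusted p of 0.0791 and 0.0629.

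The remaining 3 calls lay nearer the threshold. The EPB41 63-nt exon was 10.9 ± 6.94 points higher at 96 hr, in 4 of 4 groups (log2 odds 0.76, SE 0.25, adjusted p = 0.0333). The 34-nt exon of ADD1 (chromosome 4, 2926642 to 2926675), which changes the carboxyl end of alpha adducin, was 7.46 ± 4.54 points higher (adjusted p = 0.015). An ADD1 exon of 158 nt upstream of the coding sequence (2867972 to 2868129) differed by -5.78 ± 3.37 points (adjusted p = 0.0145), but its upstream junction had 0 or 1 read in each treated library and its inclusion reads come almost wholly from its downstream junction. These 3 calls were lost in 7, 5 and 5 of 20 alternatives, with their direction kept. For the EPB41 63-nt exon, omitting the 48 hr or 96 hr control gave an adjusted p of 0.0761 or 0.191, omitting total KD of 48 hr or 96 hr gave 0.133 or 0.140, and omitting N-long KD of 48 hr gave 0.0531. For the ADD1 34-nt exon, omitting total KD of 48 hr or 96 hr gave 0.127 or 0.0617, and omitting N-long KD of 96 hr gave 0.0793. For the ADD1 158-nt exon, omitting the 48 hr or 96 hr control gave 0.0535 or 0.0561, and omitting total KD or N-long KD of 48 hr gave 0.0741 or 0.0788.

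**Figure D3:**
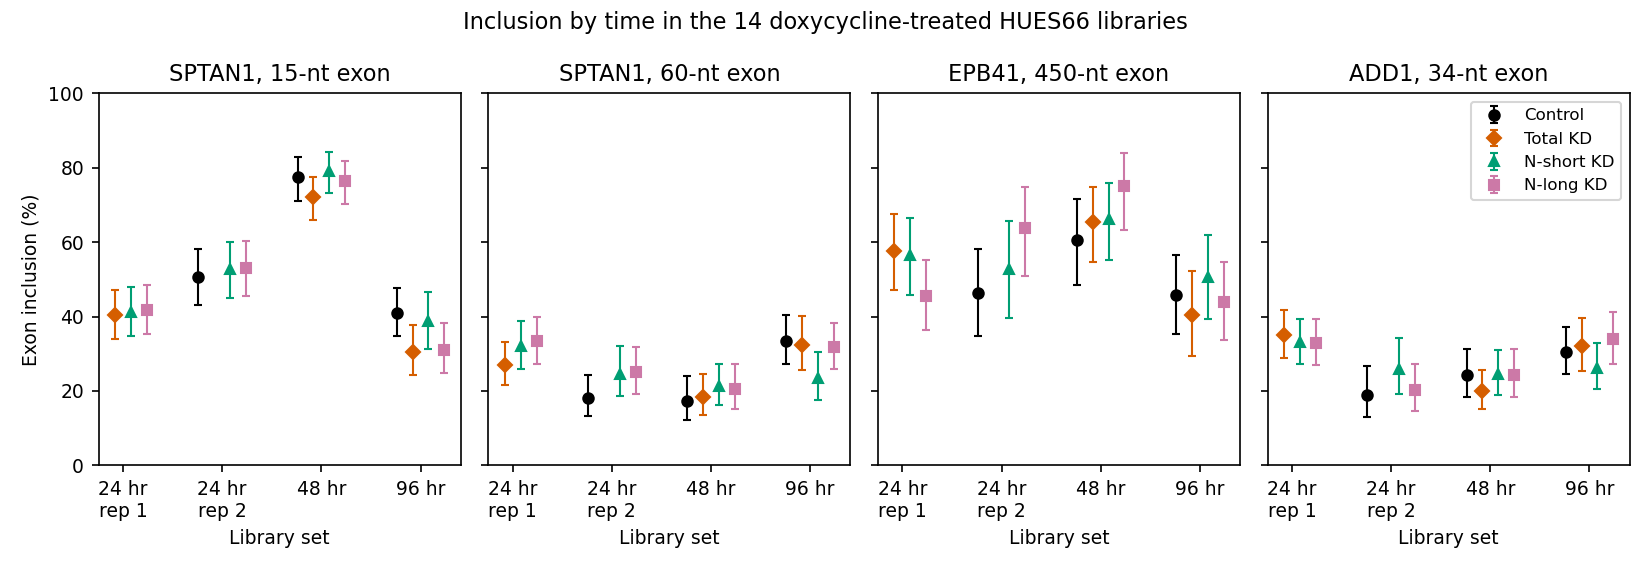
Inclusion (%) of 4 exons by library set in the 14 treated HUES66 libraries, with marker shape and colour for the knockdown group and bars for 95% Wilson intervals of the reads. The SPTAN1 15-nt exon sits at 72.2% to 79.2% at 48 hr and at 30.6% to 41% at 96 hr, and the 24 hr sets lie below 48 hr.

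Other genes of the membrane skeleton, 26 in a fixed list, gave 22 tested genes. None passed in any knockdown comparison, where 2.26% of all genes passed in total KD and 0.0224% or less in the others. In total KD the smallest adjusted p of the list (edgeR test) lay near 0.05. They were those of ANK2 (log2 -0.19, adjusted p = 0.0501), ANK1 (-0.30, 0.0516), EPB41L4A (-0.29, 0.0613) and NF2 (-0.18, 0.0649). Each was lower in 2 of 2 sets. Over the 22 genes the median log2 change there was -0.05, against -0.00083 over all genes. Between 48 hr and 96 hr 8 were higher (ANK2, ADD2, EPB41L4B, DMTN, SLC4A2, EZR, RDX and DLG1) and 10 lower (among them SPTB, SPTBN5, ANK1, EPB41L4A, TMOD1, TMOD2, MPP1, MSN and CASK), where 29.5% of all tested genes were higher and 30% lower. DMTN (log2 3.64, with a wide SE of 1.17) and DLG1 (0.09, SE 0.033) were higher in 3 of 4 groups and lower in 1. SPTB, the erythroid beta spectrin, had a log2 change of -2.55 (SE 0.24, adjusted p = 3.9e-11) and ANK1, the erythroid ankyrin, of -1.43 (SE 0.069, adjusted p = 1.6e-18). ANK2, ankyrin-B, had 0.53 (SE 0.042, adjusted p = 5.7e-13). Of their 16 tested exons in 6 genes, 3 fell in total KD (1.28% of all tested exons passed). One was a 100-nt exon of DLG1 (difference of -20.8 ± 15.5 points), near the threshold (adjusted p = 0.0462, edgeR test). The 97-nt DLG1 exon that overlaps it differed by -24.1 ± 7.50 points without passing (adjusted p = 0.188). The others were the overlapping 45-nt and 60-nt exons of NF2 (differences of -27.6 ± 11.4 and -24.8 ± 7.41 points). The NF2 pair also fell in N-long KD, with differences of -25.7 ± 6.73 and -24.9 ± 4.38 points (0.465% of all passed). Between 48 hr and 96 hr 3 were higher at 96 hr and 1 lower, where 16.4% of all passed. The 69-nt exon of CASK differed by 29.6 ± 9.70 points and its 36-nt exon by -19.4 ± 6.68 points, and the 97-nt and 99-nt exons of DLG1 by 18.4 ± 8.15 and 24.9 ± 6.17 points. NF2 encodes merlin, a FERM protein related to the protein 4.1 family.

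Between cell lines there was 1 library per line, so differences have no replicate check, no p-value is given, and intervals cover counting error only. Exons of these genes with at least 20 reads in both libraries and an inclusion of 2% to 98% over both together differed by at least 20 points in 6 of 19 between HUES66 and A375 (7.22% of all such exons), 4 higher and 2 lower in HUES66 (3.37% and 3.85% of all). They did so in 5 of 15 between HUES66 and HEK293 (6.42%), 4 higher and 1 lower in HUES66 (3.96% and 2.46%), and in 1 of 13 between A375 and HEK293 (5.47%). The 96-nt exon of ADD3, shown above, which separates the longer from the shorter gamma adducin, was included in 204 of 206 reads in HUES66 (99%, 95% Wilson interval 96.5% to 99.7%). It was at 34.1% (25% to 44.5%) in A375 and 32.7% (21.5% to 46.2%) in HEK293. In the treated HUES66 libraries it stayed between 97.5% and 100%, and its pooled inclusion of 99.6% kept it out of the test there.

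Both SPTAN1 exons differed by line. The 15-nt exon was at 40% (35.5% to 44.7%) in HUES66, 1.15% in A375 (2 of 174 reads) and 2.82% in HEK293 (5 of 177 reads). The 60-nt exon was at 30.8% (26.5% to 35.5%) in HUES66, 41% (34.1% to 48.2%) in HEK293 and 79.6% (72.5% to 85.2%) in A375. The 450-nt exon of EPB41 was at 50.3% (42.9% to 57.7%) in HUES66, while A375 had 1 inclusion read of 26 and HEK293 2 of 56. The 34-nt exon of ADD1 was at 30% (25.8% to 34.7%) in HUES66, 5.81% in A375 and 2.33% in HEK293.

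Exons of the protein 4.1 genes included the following. The 411-nt exon of EPB41L1 was at 40% (29.7% to 51.3%) in HUES66 and 70.7% (55.5% to 82.4%) in A375, and HEK293 had 12 inclusion reads of 15. The 117-nt exon of EPB41L3 was at 32% (20.8% to 45.8%) in HUES66 and 80.4% (71.4% to 87.1%) in HEK293, and A375 had 7 inclusion reads of 8. The EPB41 63-nt exon was at 77.2% (70.3% to 82.9%) in HUES66 and 79.7% (68.8% to 87.5%) in HEK293, and A375 had 15 inclusion reads of 17. RBFOX2 was at 120 CPM in HUES66, 98.1 CPM in HEK293 and 78.2 CPM in A375.

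**Figure D4:**
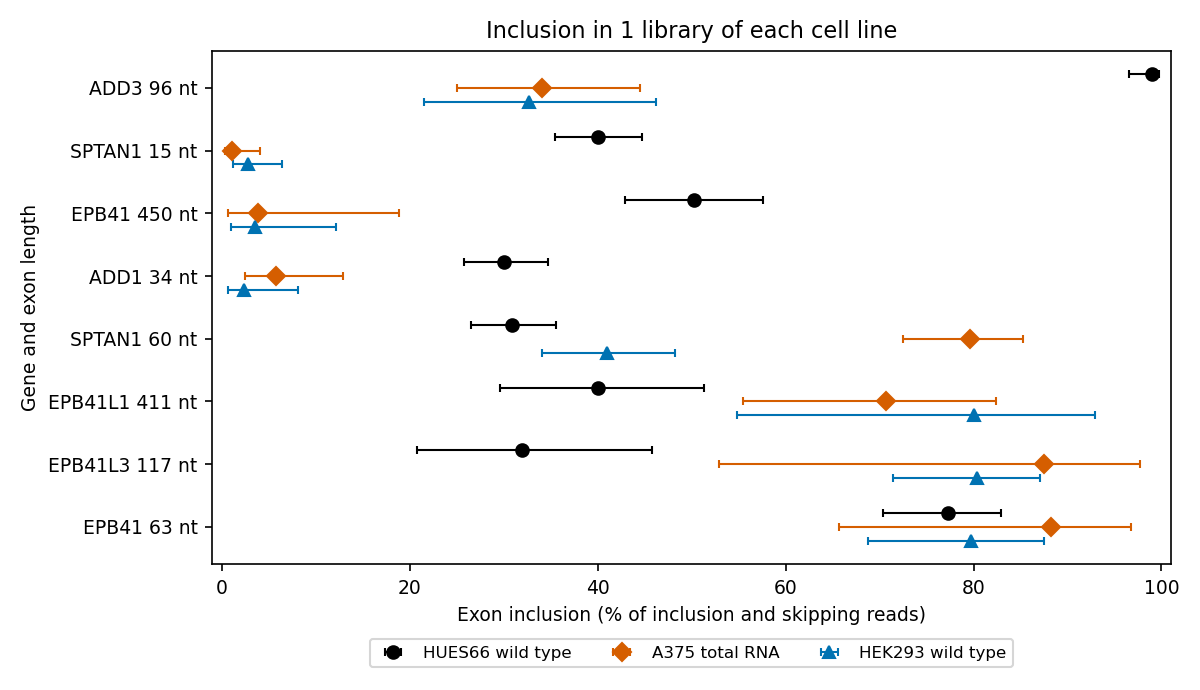
Inclusion (% of inclusion and skipping reads) of 8 exons in 1 library each of HUES66 wild type, A375 total RNA and HEK293 wild type, with bars for 95% Wilson intervals. The ADD3 96-nt exon is at 99% in HUES66, 34.1% in A375 and 32.7% in HEK293, and the SPTAN1 15-nt exon is at 40% against 1.15% and 2.82%.

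First exons also differed in some of the genes. Among reads of the 2 SPTBN1 first introns with most reads, the upstream start (54456519 to 54526371, chromosome 2) took 14.6% (11.9% to 17.8%) in HUES66, 27.4% (20.3% to 35.9%) in HEK293 and 56.5% (47.9% to 64.7%) in A375. For EPB41, the upstream start (28887211 to 28987447, chromosome 1) took 17 of 115 reads in HUES66 (14.8%, 9.44% to 22.4%). It took 20 of 34 in HEK293 (58.8%, 42.2% to 73.6%) and 15 of 19 in A375 (78.9%, 56.7% to 91.5%). In treated HUES66 libraries its share lay between 6.15% and 35.5%. The distal ANK3 start took 51 of 178 reads in HUES66 (28.7%, 22.5% to 35.7%) and 13 of 32 in HEK293 (40.6%, 25.5% to 57.7%), with overlapping intervals. In A375 it took 1 of 58 (1.72%, 0.305% to 9.14%). Its share in treated HUES66 libraries lay between 21.3% and 39.2%. The EPB41L2 starts were alike in the lines. Its first intron 130956500 to 131063141 (chromosome 6) took 19.2% in HUES66, 25% in HEK293 and 23.9% in A375, with overlapping intervals. None of the tested first-exon junctions of SPTBN1, EPB41, ANK3 and EPB41L2 passed in a knockdown comparison.

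Gene levels were compared at a threshold of 2-fold. HUES66 and A375 differed at least 2-fold in 2 of 10 (45.1% of all genes with enough reads did): EPB41L5 was 7.08-fold higher in HUES66 (5.80 to 8.74) and EPB41 2.53-fold higher (2.29 to 2.79). HUES66 and HEK293 differed so in 2 of 10 (40.1% of all). EPB41L1 was 2.01-fold higher in HUES66, with an interval (1.75 to 2.32) that includes 2. EPB41L3 was 6.24-fold higher in HEK293 (5.80 to 6.71). A375 and HEK293 differed so in 5 of 10 (38.1% of all), 2 higher and 3 lower in A375. Among the higher was ADD3 at 2.06-fold, with an interval (1.89 to 2.26) that includes 2. EPB41L3 was at 24.1 CPM in A375, 38.2 CPM in HUES66 and 238 CPM in HEK293. EPB41L5 was at 11.9, 84.2 and 107 CPM in the same order. SPTAN1 was at 939, 752 and 935 CPM. SPTBN1 was at 1053, 909 and 797 CPM.

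In A375, nuclear and cytoplasmic RNA were compared to ask where each transcript lies. SPTBN1 was 7.69-fold higher in CPM in nuclear than in cytoplasmic RNA (7.43 to 7.96, exact interval), SPTAN1 7.02-fold (6.78 to 7.28) and ANK3 3.0-fold (2.78 to 3.23). These 3 of 10 passed 2-fold upward and none passed downward, where 42% of all genes passed (22.7% higher in the nucleus). SPTBN1 was at 1632 CPM in nuclear, 212 CPM in cytoplasmic and 1053 CPM in total RNA, and SPTAN1 at 1410, 201 and 939 CPM. EPB41L2 was 1.76-fold higher in the nucleus and EPB41L5 1.40-fold. EPB41 (1.05, 0.920 to 1.19), ADD3 (1.05, 0.979 to 1.13) and EPB41L3 (0.930, 0.774 to 1.11) had intervals that include 1, while ADD1 (0.794) and EPB41L1 (0.756) were lower in the nucleus. CPM are shares of each library, so the ratios do not give amounts per cell. As a check of the fractions, MALAT1 was at 68.2 CPM in nuclear and 2.33 CPM in cytoplasmic RNA, and 4 abundant messenger RNAs (GAPDH, ACTB, EEF1A1 and RPLP0) summed to 11999 and 26441 CPM.

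**Figure D5:**
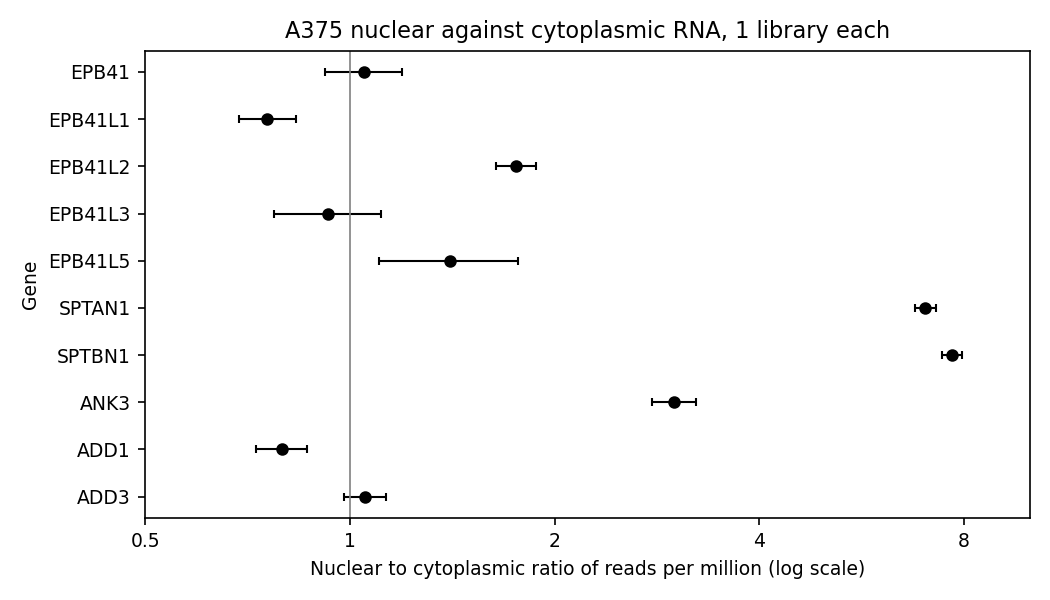
Ratio of CPM in A375 nuclear to cytoplasmic RNA (log scale) for the 10 genes, 1 library each, with bars for exact 95% intervals of the 2 counts. SPTBN1 and SPTAN1 lie at 7.69 and 7.02, ANK3 at 3.0, and the remaining genes between 0.756 and 1.76.

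Inclusion was also compared between the fractions. Of 16 exons with at least 20 reads in both fractions and an inclusion of 2% to 98% over both, 0 differed by at least 20 points (3.62% of all such exons did). The SPTAN1 60-nt exon was at 67.7% in nuclear and 70.2% in cytoplasmic RNA, the ADD3 96-nt exon at 29.4% and 29.7%, and the EPB41L1 411-nt exon at 54.3% and 63.8%. The SPTBN1 upstream start took 60.1% (52.6% to 67.2%) of the reads of its 2 starts in nuclear and 82.4% (72.9% to 89.0%) in cytoplasmic RNA. For the other genes with starts compared, the intervals of the fractions overlapped. The EPB41 upstream start was at 60% in nuclear and 53.6% in cytoplasmic RNA, and the distal ANK3 start at 0% and 1.3%. The EPB41L2 intron 130956500 to 131063141 was at 12.7% and 17.8%.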

How the data were processed

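RNA was measured in 19 libraries of 3 human cell lines. Per the submitters' processing notes, STAR 2.7.1, SAMtools 1.9 and the hg38 build were used, with no role given. The deposited junction tables hold raw counts of spliced reads per junction, without normalization, as read from their whole-number values. The filters on reads are not given in the sources used here. In the authors' deposited rMATS tables, the inclusion difference (a unit other than counts, on a scale from -1 to 1) and its p-value and adjusted p-value are the authors' own. The sign is control minus knockdown, as checked against the junction counts (Pearson r from -0.955 to -0.752 across exons), and 69 columns of per-library values were not used.

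Junctions were annotated with GENCODE 29, the release in the reference at hand, which is not the one in some of the deposited names, and reads on junctions of 1 gene were summed. That used 93.3% to 94.8% of each library, and genes without introns cannot be seen. A cassette exon has up to 1000 nt and annotated inclusion and skipping junctions with the same outer ends. For inclusion, counts of both flanking junctions were averaged and rounded. An exon was tested where treated libraries had on average 20 or more reads and included it at 2% to 98% when pooled. A single fit over the 14 treated libraries used R 4.3.3 and the quasi-likelihood test of edgeR 4.0.16 (TMM scaling, filterByExpr for genes and junctions), with terms for library set and knockdown, and exons as paired inclusion and skipping counts. Benjamini-Hochberg adjustment ran over all genes, exons or junctions of a contrast, with a threshold of 0.05. A set is the time and, at 24 hr, the replicate. Residuals of libraries of the same set correlated at a median r of 0.56 (18 pairs), those of other sets and knockdowns at -0.18 (55 pairs). A difference in points is the mean over sets (or, for 96 hr against 48 hr, over groups) that hold both sides, with its SD. Between lines and fractions the range of 2% to 98% was applied to the 2 libraries pooled. Single libraries carry 95% Wilson or exact intervals, and gene ratios used a pseudocount of 0.5 reads for counting those past 2-fold. The tests were checked on simulated data. Alternatives used DESeq2 1.42.0, limma 3.58.1, other filters, no replicate block, the HUES66 wild-type library as a 24 hr control, and each library left out. That library has "empty" in its name, as the controls do, but is labelled wild type, and its role cannot be told from the labels.

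The genes, lists and rules were chosen with earlier results of these data known. Exons named are those of the 10 genes that passed in a contrast or differed by at least 20 points between lines or fractions. Named junctions are the 3 with the smallest adjusted p that bound no named exon. The planned search for RBFOX motifs in introns was not run, as no genome sequence was used here. Python 3.11.15 with pandas 2.3.3 and scipy 1.17.1 made the tables. Some items of the gene lists are not reported here.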

Additional observations from a re-analysis of the deposited data

How the results depend on the processing

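The direction of each called gene and exon was kept in every alternative run. In total KD the EPB41 63-nt exon passed in 20 of 20 alternatives (log2 odds -3.55 to -3.03), and in N-long KD and between N-long and N-short KD it passed in 19 of 20, the exception being limma. Among the changes with time, ANK3, ADD3, EPB41L3 and EPB41L5 passed in 18 of 18 and the SPTAN1 15-nt and EPB41 450-nt exons in 20 of 20.

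Gene reads in total KD gave 1 called gene, SPTBN1, and 0 without the replicate block, which here is the 24 hr replicate number as part of the library set; with each library left out the count was 0 to 1. Exons in total KD gave 2 calls, but 1 with inclusion from the flanking junction with more reads (chosen after the data were seen), with limma or with a mean of at least 50 reads, and 1 to 2 with a library left out. Exons in N-long KD gave 2 calls, but 0 with limma, and 1 with the larger junction, at least 50 reads or no replicate block, and 1 to 2 with a library left out. Between N-long and N-short KD the counts were the same: 2, but 0 with limma, 1 under the other 3 settings and 1 to 2 with a library left out. With at least 50 reads the EPB41L1 411-nt exon (a mean of 46.3 reads) was not tested. The lower counts of these 3 comparisons under that setting are thus not calls lost on testing. Over all exons limma called 13 in total KD, where edgeR called 88, and 0 in the comparisons with N-long KD, where edgeR called 32 and 25. The cause was not tested. Exons between 96 hr and 48 hr gave 7 calls, 2 with limma, 5 without the replicate block, 8 with at least 50 reads and 5 to 9 with a library left out. Junctions in N-long KD gave 2 calls and 0 without the replicate block. Over all genes, total KD called 303, and 528 with the HUES66 wild type as a control and 62 without the block.

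Values that did not pass changed sign in 3 cases when 1 library was left out. The log2 change of RBFOX2 in N-short KD ranged from -0.11 to 0.0024 over the libraries left out (0.0014 without the 24 hr replicate 2 control), that of RBFOX2 between 96 hr and 48 hr from -0.11 to 0.019 (0.0061 without the 48 hr total KD library), and the log2 odds of the EPB41L1 411-nt exon in N-short KD from -0.55 to 0.079. The RBFOX2 decrease in N-long KD had an adjusted p of 0.0682 with DESeq2 and 0.459 without the block. Counts between cell lines and fractions stayed within 1.5 times with at least 50 reads in both libraries and, for genes, with a pseudocount of 2 reads. For all 10 genes DESeq2 gave the same counts of calls.

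Depth limits the exon results: a mean of 20 to 50 reads per library, as for the exons of EPB41L1 and EPB41L3, leaves wide intervals. Each group has 1 library per set, there is no control in the 24 hr replicate 1 set and no total KD in 24 hr replicate 2, and the cell lines and fractions have no replicates.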
